A study of Mus musculus with 2 samples.

Results

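The genes described here are 10 components of the Notch signalling system in the developing mouse brain and spinal cord: the receptors Notch1, Notch2 and Notch3, the ligands Dll1, Dll3, Dll4, Jag1 and Jag2, and the Fringe enzymes Lfng and Mfng. They were taken by symbol from the 43346 Ensembl genes of the deposited gene tables, and all 10 had a single matching gene ID. The tissue was embryonic central nervous system at 11.5 days, dissected from littermates of mixed sex of the mouse strain C57BL/6J, with no treatment and no altered allele named. The study has 2 libraries, labelled biological replicates 1 and 2, made from polyadenylated RNA that had been depleted of ribosomal RNA, and there is no second condition. The labels give each library its own tissue sample but do not say how many embryos each held, so the spread between them may include dissection as well as library preparation.

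Notch receptors are single-pass membrane proteins that are activated by Delta-like or Jagged ligands on a neighbouring cell. Ligand pulling exposes the receptor to cleavage, and its intracellular part then enters the nucleus and joins the DNA-binding protein RBPJ. In the embryonic nervous system the pathway keeps progenitors from all becoming neurons at once: a cell that commits to a neuronal fate displays Delta-like ligand, and its neighbours turn on Hes and Hey repressors. Fringe enzymes work in the Golgi, where they add a sugar to O-fucose on the receptor and so change which ligands it responds to.

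Depth was high for these genes. Replicate 1 held 120461123 estimated reads assigned to Ensembl genes and replicate 2 held 108006997, and the members received between 980 and 38224 estimated reads per library. Levels are given in TPM, a share of all transcript molecules in a library that corrects for transcript length and so lets different genes be compared. With 1 group of 2 libraries no test of a difference was possible, and the mean ± SD (n = 2) and both library values stand in place of one. Of the marker lists, 8 of 8 neural progenitor markers and 8 of 8 young neuron markers reached 1 TPM in both libraries. So did 8 of 8 markers each of endothelium, mural cells, macrophages and erythroid cells. Reaching 1 TPM therefore does not single out neural tissue.

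All 10 members were expressed, each at 1 TPM or more in both libraries, and 9 of 10 were at 10 TPM or more. Their median level was 34.7 TPM, against a median of 5.29 TPM over 21474 protein-coding genes. Dll1 was highest on average, followed by Dll3, Mfng, Notch3, Lfng, Notch1, Notch2, Jag1, Jag2 and Dll4. Of the 9 neighbouring pairs in that order, 4 were apart in the sense that both libraries of the higher gene lay above both libraries of the lower one: Notch3 above Lfng, Notch1 above Notch2, Jag1 above Jag2, and Jag2 above Dll4. The other 5 neighbouring pairs overlapped, so the places of Dll1 and Dll3, of Dll3 and Mfng, of Mfng and Notch3, of Lfng and Notch1, and of Notch2 and Jag1 next to each other were not set apart by these libraries. Dll1 lay above Dll3 and Mfng within each library, and both of its values lay above both values of Notch3. All of these levels are gene totals over annotated transcripts, and parts of the order change for the main coding transcript alone. Dll1-201 had 79.5 TPM in replicate 1, against 79.6 TPM for Dll3-201. In replicate 2 Dll1-201 had 43.3 TPM, below Notch3 at 46.7 TPM. Jag1-201 lay below Jag2 in both libraries.

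**Figure D1:**
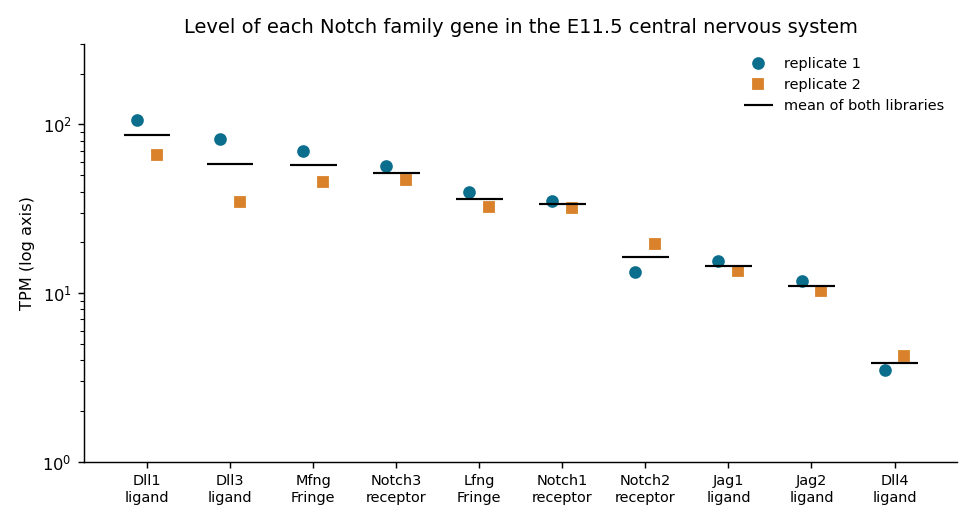
Level of each member in TPM on a log axis, with replicate 1 as circles, replicate 2 as squares and the mean of both as a line. Genes run from Dll1 at 86.3 TPM on average to Dll4 at 3.87 TPM, and Notch2 and Dll4 are the members whose replicate 1 value lies below that of replicate 2.

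Among the receptors, Notch3 gave the most transcript. Notch3 (chr17:32120820-32166852 of mm10, minus strand), a receptor of neural progenitors and of vascular mural cells, had 56.9 TPM in replicate 1 and 46.7 TPM in replicate 2, a mean of 51.8 ± 7.20 TPM (SD, n = 2). Notch1 (chr2:26457903-26516663, minus strand), the receptor most studied in neural progenitors, had 35.1 TPM in replicate 1 and 32.0 TPM in replicate 2, a mean of 33.5 ± 2.18 TPM (SD, n = 2). Notch2 (chr3:98013527-98150361, plus strand) had 13.3 TPM in replicate 1 and 19.5 TPM in replicate 2. The 3 ranges did not overlap, with Notch3 above Notch1 and Notch1 above Notch2 in each library.

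Notch3 made up 54.0% of the summed TPM of the 3 receptors in replicate 1 and 47.5% in replicate 2. Notch1 held a nearly constant share, 33.3% in replicate 1 and 32.6% in replicate 2. Notch2 held 12.6% in replicate 1 and 19.9% in replicate 2, so its share differed more between the libraries than that of Notch1. The receptor sum itself was close in both, at 105.2 TPM in replicate 1 and 98.2 TPM in replicate 2. Notch4, the remaining mammalian receptor and one best known from endothelium, stood outside the 10 members and had 20.4 TPM in replicate 1 and 10.6 TPM in replicate 2.

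Among the ligands, Dll1 and Dll3 accounted for most of the transcript. Dll1 (chr17:15367354-15376872, minus strand), the Delta-like ligand displayed by cells committing to a neuronal fate, had 106.5 TPM in replicate 1 and 66.0 TPM in replicate 2. Dll3 (chr7:28293553-28302238, minus strand), a divergent ligand found largely inside the cell and not known to activate Notch on a neighbour, had 81.9 TPM in replicate 1 and 34.7 TPM in replicate 2. For both genes replicate 1 was the higher library. Together these were the members that differed most between libraries, with SDs of 28.7 and 33.4 TPM. Over the other 8 members the SD ran from 0.523 TPM in Dll4 to 16.9 TPM in Mfng (n = 2 libraries).

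The promoter windows of these 2 ligands are shown because they were the most abundant ligands and the members that differed most between libraries. Each is the 250 bases before the RefSeq start in GRCm38.p6, read 5′ to 3′ on the gene's own strand, with capitals marking E-box letters (CANNTG, searched on both strands), the core bound by proneural bHLH proteins and by many other factors.
Dll1, chr17:15375824-15376073, minus strand: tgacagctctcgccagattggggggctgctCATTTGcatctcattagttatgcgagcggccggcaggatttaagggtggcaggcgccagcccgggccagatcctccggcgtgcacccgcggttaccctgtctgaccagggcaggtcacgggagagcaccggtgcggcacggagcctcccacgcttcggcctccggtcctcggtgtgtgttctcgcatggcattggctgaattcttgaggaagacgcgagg
Dll3, chr7:28301786-28302035, minus strand: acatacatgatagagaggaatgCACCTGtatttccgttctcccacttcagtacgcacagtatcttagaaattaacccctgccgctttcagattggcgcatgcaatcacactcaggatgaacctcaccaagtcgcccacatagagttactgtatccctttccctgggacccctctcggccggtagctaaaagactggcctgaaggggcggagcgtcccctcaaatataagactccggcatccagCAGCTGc

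The Dll1 window held 1 E-box match and the Dll3 window 2. Such letters are common, with at least 1 match in 66.2% and at least 2 in 31.8% of the 32851 promoter windows of the same length. RefSeq gives Dll1 a further start upstream, whose window (chr17:15376933-15377182) held 3 matches. Windows were given for 9 of the 10 members, 5 of the 10 windows held an E-box match, and those of Notch1, Notch2, Notch3, Dll4 and Jag2 held none. A match describes letters in these windows and no binding was measured.

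The remaining ligands were lower. Jag1 (chr2:137081456-137116644, minus strand), a Jagged ligand found in neural tube domains between those of Dll1, had 15.4 TPM in replicate 1 and 13.5 TPM in replicate 2. Jag2 (chr12:112907819-112929776, minus strand), its closest relative, had 11.9 TPM in replicate 1 and 10.3 TPM in replicate 2. The ratio of Jag1 to Jag2 was 1.30 in replicate 1 and 1.31 in replicate 2, the steadiest of the 8 ratios between members that were computed. Both are ratios of gene totals, which include non-coding transcripts. The coding transcript Jag1-201 alone had 9.91 TPM in replicate 1 and 8.7 TPM in replicate 2, below Jag2 in each.

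Dll4 (chr2:119325784-119335962, plus strand), a ligand of endothelial tip cells that is also made by some neural progenitors, was lowest of the 10, with 3.50 TPM in replicate 1 and 4.24 TPM in replicate 2. Dll1 stood 30.4-fold above Dll4 in replicate 1 and 15.6-fold above it in replicate 2, both ratios of TPM. The 8 endothelial markers summed to 139.9 TPM in replicate 1 and 160.6 TPM in replicate 2, from Tek, lowest by the mean, at 5.39 TPM in replicate 1 and 7.24 TPM in replicate 2 to Cldn5, highest by the mean, at 33.8 TPM in replicate 1 and 24.8 TPM in replicate 2, and none was at 0. In whole tissue a smaller number of cells of a type and less RNA per cell cannot be told apart.

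Summed over all 5 ligands, replicate 1 had 219.2 TPM and replicate 2 had 128.7 TPM. Dll1 was 48.6% in replicate 1 and 51.3% in replicate 2 of that sum, Dll3 37.4% in replicate 1 and 26.9% in replicate 2, and Dll4 1.60% in replicate 1 and 3.29% in replicate 2. The Jagged share was smaller in replicate 1, where Jag1 held 7.04% and Jag2 5.41%, against 10.5% and 8.03% in replicate 2. The summed TPM of these 5 ligands exceeded that of the 3 member receptors, 2.08-fold in replicate 1 and 1.31-fold in replicate 2. These sums include Dll3 and non-coding transcripts and leave out Notch4. In replicate 2, Dll3 alone, at 34.7 TPM, was larger than the gap between the ligand and receptor sums.

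Both Fringe members were well expressed, and Mfng was the higher of them. Mfng (chr15:78755882-78773475, minus strand), manic fringe, had 69.6 TPM in replicate 1 and 45.7 TPM in replicate 2. Lfng (chr5:140607320-140615545, plus strand), lunatic fringe, which favours the response to Delta-like over Jagged ligands, had 39.6 TPM in replicate 1 and 32.2 TPM in replicate 2. Mfng lay above Lfng in both libraries, 1.76-fold in replicate 1 and 1.42-fold in replicate 2. Rfng, radical fringe, was outside the 10 members and had 40.0 TPM in replicate 1 and 35.1 TPM in replicate 2, a range that overlapped that of Lfng.

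The Lfng window is shown because it alone among the 10 windows of members held the core letters bound by RBPJ (TGGGAA, both strands). Capitals mark those letters and E-box letters.
Lfng, chr5:140607091-140607340, plus strand: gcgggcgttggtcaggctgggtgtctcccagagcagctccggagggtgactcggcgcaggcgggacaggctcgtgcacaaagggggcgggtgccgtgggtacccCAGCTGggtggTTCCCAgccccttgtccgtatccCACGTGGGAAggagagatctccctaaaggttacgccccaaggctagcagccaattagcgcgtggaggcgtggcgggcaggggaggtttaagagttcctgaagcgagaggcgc
It held 2 RBPJ-core matches, starting 135 and 108 bases before the RefSeq start, and the second overlapped an E-box match that starts 112 bases before it. At least 1 such core is found in 21.6% of all windows of this length and at least 2 in 2.77%. The letters are a description of the reference genome, and no binding was measured.

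Differences between the libraries were then set against those of all genes. Estimated counts were scaled by TMM, a method that evens out library composition, and a gene counted as apart at a difference of 2-fold or more, given at least 100 estimated reads over both libraries. By that rule 2 of 10 members were apart, against 11.4% of the 16511 genes that met the count minimum. Both were higher in replicate 1, a direction in which 5.05% of genes were apart. These comparisons have 1 library on each side, and the intervals below cover counting error only.

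Dll3 was 3.05-fold higher in replicate 1 than in replicate 2, with 16723 estimated reads in replicate 1 and 5371 in replicate 2 and a counting interval of 2.95 to 3.14. Dll1 was 2.05-fold higher, with 24454 reads in replicate 1 and 11705 in replicate 2 and an interval of 2.00 to 2.09, so it lay at the edge of the threshold. Its difference was below 2-fold when libraries were scaled by their totals (1.87-fold), a scaling that moves all genes alike and puts their median log2 ratio at -0.12. It was also below 2-fold when deposited TPM were compared with a pseudocount of 1 (1.60-fold). Dll3 stayed past the threshold on those scales, at 2.79-fold and 2.33-fold.

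The other 8 members lay within 2-fold. Mfng was 1.71-fold higher in replicate 1 (interval 1.65 to 1.77), Lfng 1.41-fold (1.36 to 1.46) and Notch3 1.39-fold (1.37 to 1.41). Jag2, Jag1 and Notch1 were 1.31-fold, 1.31-fold and 1.26-fold higher in replicate 1. Dll4 was nearly level, with 1012 reads in replicate 1 and 980 in replicate 2 and a ratio of 1.01 (interval 0.925 to 1.11), and by library totals or TPM it was lower in replicate 1. Notch2 was the exception on the scaled counts, with 11732 reads in replicate 1 and 14775 in replicate 2 and a ratio of 0.777 (interval 0.758 to 0.796).

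Over the 10 members the median log2 ratio was 0.43, and over all 16511 genes it was 0.01. Members with a positive ratio numbered 9 of 10, while 50.6% of all genes tested had one. On the TPM scale the median of all genes was -0.12 and that of the members 0.23.

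**Figure D2:**
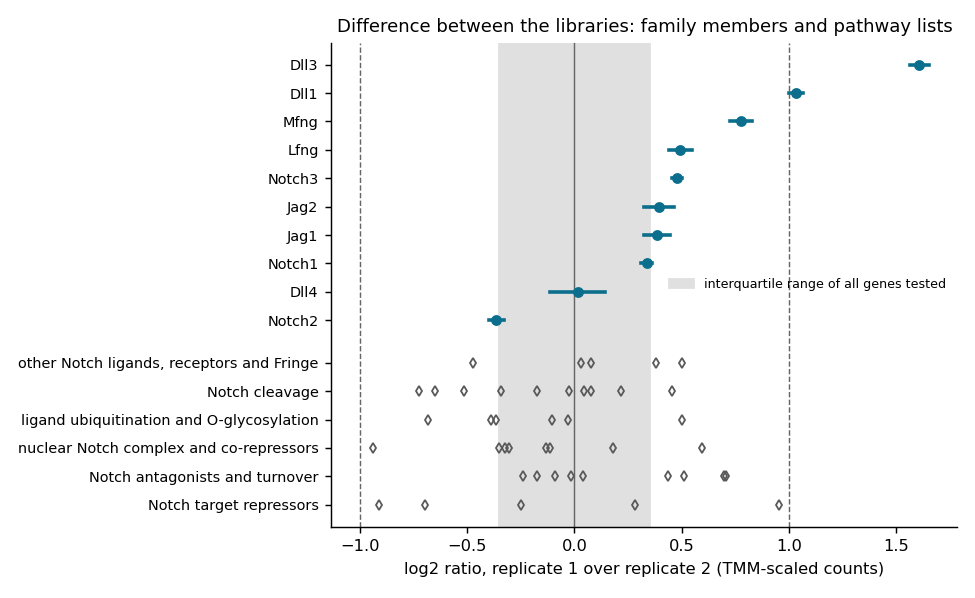
The log2 ratio of replicate 1 over replicate 2 on TMM-scaled counts for each member, with its 95% counting interval as a bar, above the genes of the 6 pathway lists as diamonds. Dashed lines mark a 2-fold difference and the grey band is the interquartile range of all genes tested, from -0.35 to 0.35. Dll3 at 1.61 and Dll1 at 1.03 are past the dashed line and no pathway gene is.

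Markers of several cell types also differed between the libraries. Of all genes tested, 5.05% were at least 2-fold higher in replicate 1. The 8 neural progenitor markers summed to 4121 TPM in replicate 1 and 2073 TPM in replicate 2, and 4 of 8 were at least 2-fold higher in replicate 1. Vim, under 2-fold on scaled counts, made up most of that gap, at 2643 TPM in replicate 1 and 1153 TPM in replicate 2. The 7 markers of committing progenitors used here, among them Neurog2, summed to 712.0 TPM in replicate 1 and 337.4 TPM in replicate 2, with 2 of 7 at least 2-fold higher in replicate 1. Gadd45g made up most of that gap, at 340.2 TPM in replicate 1 and 102.3 TPM in replicate 2, and Neurod4 was lower in replicate 1, at 3.51 TPM against 5.80 TPM in replicate 2. Young neuron markers summed to 1863 TPM in replicate 1 and 1448 TPM in replicate 2, with 1 of 8 at least 2-fold higher in replicate 1.

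Mural cell and somite markers were mostly higher in replicate 2, and 6.35% of all genes tested were at least 2-fold lower in replicate 1. Mural cell markers summed to 94.6 TPM in replicate 1 and 229.3 TPM in replicate 2, with 3 of 8 at least 2-fold lower in replicate 1. Acta2 made up most of that gap, at 40.1 TPM in replicate 1 and 131.9 TPM in replicate 2, and Kcnj8 was slightly higher in replicate 1, at 4.29 TPM against 4.02 TPM in replicate 2. The list for presomitic mesoderm and somite, a tissue in which Dll1, Dll3 and Lfng are also active, summed to 67.2 TPM in replicate 1 and 108.5 TPM in replicate 2. In that list 5 of the 7 genes with enough reads were at least 2-fold lower in replicate 1, among them Myog at 0.40 TPM in replicate 1 and 34.2 TPM in replicate 2 and Meox1 at 0.61 TPM in replicate 1 and 12.3 TPM in replicate 2, and Uncx, which neural tissue also expresses, was higher at 59.7 TPM in replicate 1 and 29.6 TPM in replicate 2.

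The defining genes of presomitic mesoderm itself were low in both libraries. Tbx6 was at 1.00 TPM in replicate 1 and 1.27 TPM in replicate 2, Mesp2 at 0.30 TPM in replicate 1 and 0.25 TPM in replicate 2, Hes7 at 0.30 TPM in replicate 1 and 0.34 TPM in replicate 2, and Msgn1 listed at 0 in replicate 1 and at 0.04 TPM in replicate 2. No other gene of the marker lists was at 0 in either library. Endothelial and macrophage markers had 0 of 8 genes 2-fold apart each, and the 8 macrophage markers summed to 80.2 TPM in replicate 1 and 77.3 TPM in replicate 2. Surface epithelium markers summed to 45.0 TPM in replicate 1 and 59.0 TPM in replicate 2, with 2 of 8 at least 2-fold lower in replicate 1. Erythroid markers summed to 10587 TPM in replicate 1 and 16634 TPM in replicate 2, with 1 of 8, Klf1, at least 2-fold higher in replicate 1. Hbb-y made up most of that gap, at 8740 TPM in replicate 1 and 13866 TPM in replicate 2. On scaled counts 3 of the 8 erythroid markers were higher in replicate 1. For comparison, 11.4% of all genes tested were 2-fold apart, 5.05% higher and 6.35% lower in replicate 1. Transcripts of the mitochondrial genome took 1.35% of TPM in replicate 1 and 6.78% in replicate 2. The part that tissue makeup or the mitochondrial share had in the Dll1 and Dll3 differences was not tested.

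The rest of the pathway was present. Of 43 further pathway genes in 6 lists, 42 were at 1 TPM or more in both libraries and 0 of 43 were 2-fold apart on TMM-scaled counts, against 11.4% of all genes tested. Their median log2 ratio was -0.09. With 1 library on each side no p exists for this count. Scaling by DESeq2 size factors also gave 0, while library totals, with that same shift of all genes, put Maml2 and Heyl past 2-fold and deposited TPM put Hes5 past it.

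The list of other receptors, ligands and Fringe ran from Dlk1, a Delta-like protein that lacks the domain Delta ligands use to bind Notch, at 289.3 TPM in replicate 1 and 411.0 TPM in replicate 2, to its relative Dlk2 at 3.51 TPM in replicate 1 and 3.83 TPM in replicate 2. For ligand uptake and receptor glycosylation, the highest gene by the mean of both libraries was Poglut1, which adds O-glucose to Notch repeats, at 42.8 TPM in replicate 1 and 62.2 TPM in replicate 2. The lowest by the mean was Neurl1b, a ubiquitin ligase, at 1.46 TPM in replicate 1 and 1.88 TPM in replicate 2. Mib1, the ubiquitin ligase that Delta-like and Jagged ligands need for uptake, was close to level at 46.3 TPM in replicate 1 and 45.4 TPM in replicate 2.

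The cleavage list ran from Ncstn, the nicastrin subunit of gamma-secretase, at 89.19 TPM in replicate 1 and 100.97 TPM in replicate 2 to Aph1c, another subunit gene, at 0.39 TPM in replicate 1 and 1.49 TPM in replicate 2. Aph1c is a near copy of Aph1b, so reads may be split between them and its level is uncertain. Among nuclear partners, Rbpj was highest at 34.3 TPM in replicate 1 and 50.1 TPM in replicate 2, and the coactivator Maml3 was lowest by the mean at 5.33 TPM in replicate 1 and 6.59 TPM in replicate 2.

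Antagonists and turnover genes ran from Dtx3, a Deltex ubiquitin ligase, at 208.8 TPM in replicate 1 and 238.5 TPM in replicate 2 to its relative Dtx1 at 7.83 TPM in replicate 1 and 10.4 TPM in replicate 2. Numb, which opposes Notch in dividing progenitors, had 31.2 TPM in replicate 1 and 43.6 TPM in replicate 2. Of the target repressors, Hes5 was highest at 267.6 TPM in replicate 1 and 130.6 TPM in replicate 2, a log2 ratio of 0.95 on scaled counts, just under 2-fold. Heyl was lowest at 3.26 TPM in replicate 1 and 6.94 TPM in replicate 2, a log2 ratio of -0.91, so the 2 ends of this list differed in opposite directions.

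**Figure D3:**
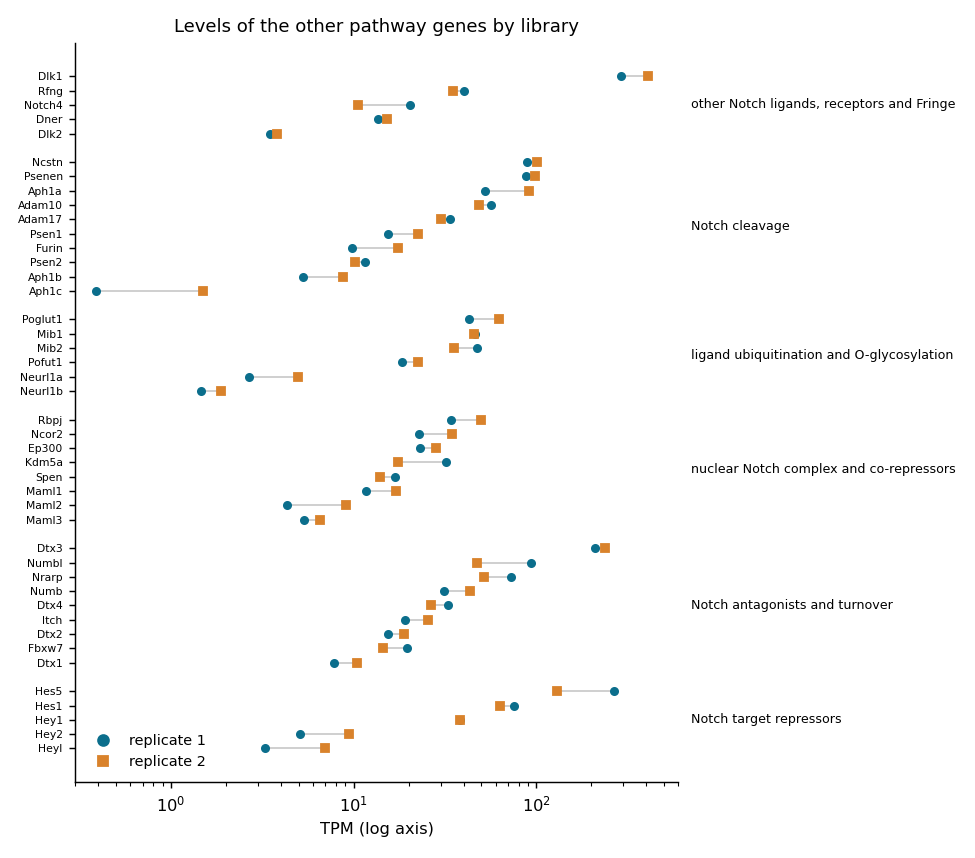
TPM of the 43 other pathway genes on a log axis, grouped by list, with replicate 1 as circles and replicate 2 as squares joined by a line. Dlk1, Dtx3 and Hes5 are the rightmost genes and Aph1c, at 0.39 TPM in replicate 1 and 1.49 TPM in replicate 2, is the leftmost.

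Transcript tables split each gene's level among its annotated transcripts. In 10 of 10 members the same transcript was the major one in both libraries, and in each it was annotated as protein coding. Notch2, Notch3, Jag2 and Lfng had a single transcript in the authors' annotation, so their shares carry no information. The other 6 members had between 2 and 11.

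Jag1 had the largest non-coding share. Jag1-201, the coding transcript of 5612 bases, took 64.2% of the gene's transcript TPM in replicate 1 and 64.4% in replicate 2. Jag1-202, annotated as a retained intron and 1463 bases long, took the remaining 35.8% in replicate 1 and 35.6% in replicate 2. Because TPM divides by length, the short model weighs more there than in reads: it held 606 of the estimated reads in replicate 1 and 448 in replicate 2, and the non-coding share of reads was 11.6% in replicate 1 and 11.5% in replicate 2.

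Dll1 was split more finely. Dll1-201 took 74.6% in replicate 1 and 65.7% in replicate 2, and the retained-intron transcript Dll1-204 took 18.9% in replicate 1 and 23.4% in replicate 2. All non-coding Dll1 transcripts together took 23.6% in replicate 1 and 32.2% in replicate 2 of TPM, and 5.05% in replicate 1 and 7.47% in replicate 2 of estimated reads. Dll1-205, a short coding transcript of 716 bases, took 1.78% in replicate 1 and 2.14% in replicate 2.

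Dll3 had the least even pair of libraries. Its coding transcript Dll3-201 had 79.6 TPM in replicate 1 and 29.0 TPM in replicate 2, while the retained-intron transcript Dll3-202 had 1.42 TPM in replicate 1 and 4.54 TPM in replicate 2, the opposite direction. In estimated reads Dll3-202 had 59.4 in replicate 1 and 158 in replicate 2. Non-coding transcripts took 2.83% of Dll3 TPM in replicate 1 and 16.4% in replicate 2, the widest gap of any member.

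In Mfng the coding transcript took 77.8% in replicate 1 and 79.9% in replicate 2, and Mfng-202, a retained intron, 15.2% in replicate 1 and 14.6% in replicate 2. Dll4-201 took 93.7% of Dll4 in replicate 1 and 86.6% in replicate 2. Notch1-201 took 91.8% in replicate 1 and 91.3% in replicate 2, and of the 11 annotated Notch1 transcripts 6 received reads in replicate 1 and 5 in replicate 2. By posterior mean TPM, another deposited estimate, the Notch1-201 share was lower and less even, at 82.15% in replicate 1 and 71.65% in replicate 2. By that estimate Notch1-208 took 7.17% in replicate 1 and 15.68% in replicate 2. It is a model of 157 bases with 0 estimated reads in each library.

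**Figure D4:**
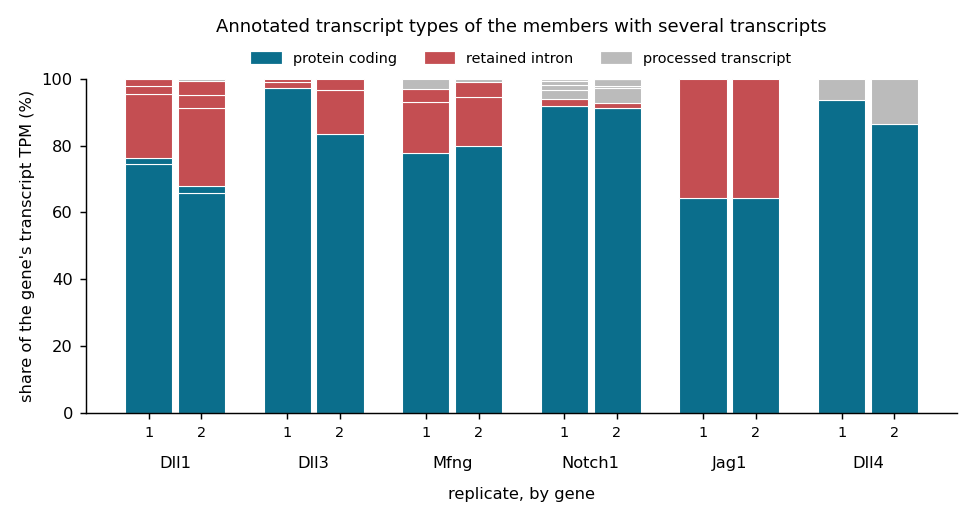
Share of each gene's transcript TPM by annotated transcript, in percent, for the 6 members with several transcripts, with replicate 1 left of replicate 2 and white lines between transcripts. Blue is protein coding, red retained intron and grey processed transcript. Jag1 keeps nearly the same split in both libraries, and the retained-intron part of Dll3 is larger in replicate 2.

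Splice junction reads came from a separate table on the older mm9 build. That table gives a first and a second read value per junction without saying which belongs to which library, so they are not tied to replicates 1 and 2 here. Over all 1270088 junctions the first values summed to 1.25 times the second. Inside the members, 284 junctions had at least 1 read in both values, and 192 of the 209 introns of the Ensembl 65 gene models did. All 192 also had at least 10 reads in each. Junctions that match no annotated intron numbered 708 and carried 1.45% of the members' junction reads. By gene that share was highest in Mfng, at 4.76%. In the other members it ran from 0.679% in Notch1 to 1.99% in Jag2.

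Along the transcript with the most exons, splicing reads were found at every intron of 9 members, and at 31 of 32 introns of Notch2. Within the remaining Notch2 intron, intron 24, lay annotated junctions of another gene model that were read. Their first and second values were 256 and 169, and 32 and 185. Median first and second values per intron were 767.5 and 540 reads in Notch3, 365 and 233 in Notch1, and 120.5 and 129 in Notch2. Among ligands they were 958 and 472.5 in Dll1, 899.5 and 374 in Dll3, 137 and 110 in Jag1, 151 and 136 in Jag2, and 55 and 47 in Dll4. The Fringe genes had 713 and 509 in Mfng and 560 and 612 in Lfng.

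The ratio of first to second value varied along a gene by more than counting error. In Dll3 the first value exceeded the second at the middle introns, up to 3.66-fold at intron 4 (1272 and 348 reads, interval 3.24 to 4.13). It was lower at intron 1 (377 and 451 reads) and at the last introns, with 0.814-fold at intron 7 (411 and 505 reads, interval 0.713 to 0.929). Dll1 ran from 1.05-fold at intron 2 to 3.40-fold at intron 4, with the first value higher at 10 of 10 introns. Jag1 ran from 0.762-fold at intron 20 to 6.12-fold at intron 1, where the reads were 465 and 76, and Notch3 from 0.352-fold at intron 8 to 3.09-fold at intron 2.

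**Figure D5:**
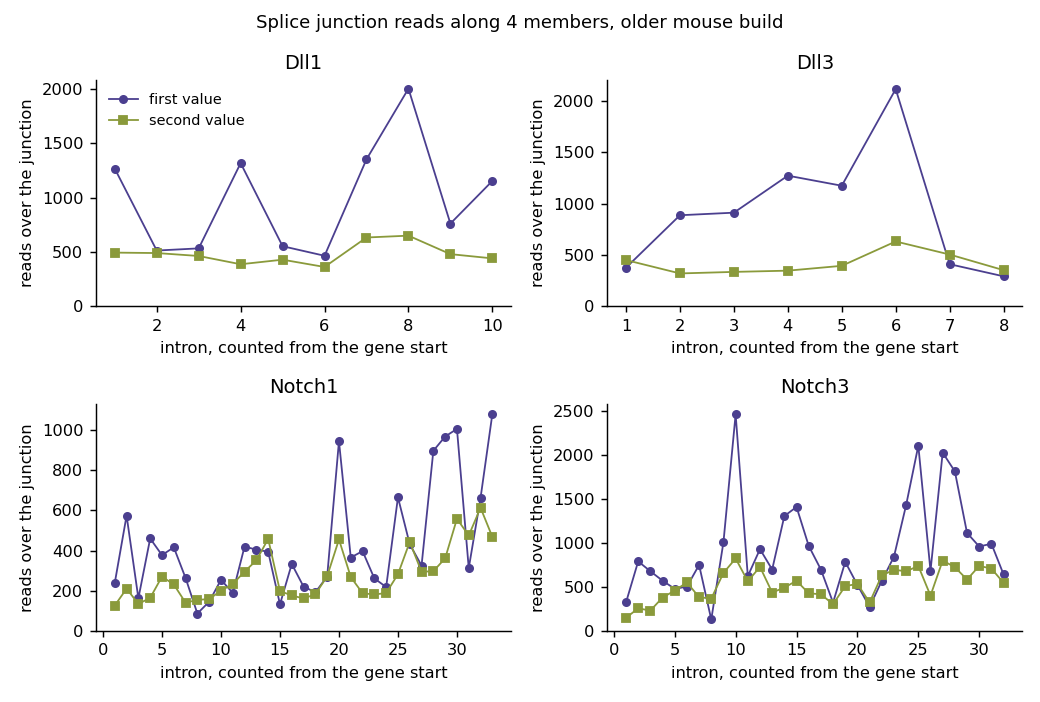
Reads over each splice junction along the longest mm9 gene model of 4 members, with introns counted from the gene start, and the first and second value of the table as circles and squares. The first value swings from intron to intron while the second is flatter, as in Dll1, where they range from 466 to 2003 and from 363 to 651.

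Gene-level values on mm9 were deposited as RPKM, reads scaled by transcript length and library size, again as a first and a second value that are not tied to a replicate. On Ensembl 65 models the highest 4 members were the same as in TPM, in the same order. Dll1 had 13.7 and 7.74 RPKM, Dll3 14.6 and 5.29, Mfng 8.19 and 5.24, and Notch3 7.41 and 5.82. Dll4 was again lowest at 0.604 and 0.470 RPKM. Notch1 and Lfng changed places, and so did Notch2 and Jag1, pairs whose libraries also overlapped in TPM. Jag1 had 3.32 and 1.79 RPKM, a wider gap than its 15.4 TPM in replicate 1 and 13.5 TPM in replicate 2 on mm10. A further set of mm9 values, on Cufflinks gene models matched to the members by overlap, gave another order. There Notch3 ranked 1, Dll1 ranked 2, Dll3 ranked 9 and Notch1 ranked 10.

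Several members share their locus with other annotated genes. On the opposite strand, Notch1 overlaps 0610009E02Rik (2.22 TPM in replicate 1 and 1.96 TPM in replicate 2) and Gm13568 (0.39 TPM in replicate 1 and 0.75 TPM in replicate 2). Dll1 overlaps A930024N18Rik (0.24 TPM in replicate 1 and 0.42 TPM in replicate 2), Dll4 overlaps Gm14207 (0.82 TPM in replicate 1 and 0.59 TPM in replicate 2) and Notch3 overlaps Gm17276 (0.14 TPM in replicate 1 and 0.08 TPM in replicate 2). The libraries are stranded per the labels, and whether the counting used strand is not given in the sources used here. All of these partners were lower than the member they overlap.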

How the data were processed

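Both libraries of embryonic central nervous system were analysed as 1 group. The authors deposited expected counts, TPM and FPKM per gene and per transcript on mm10 with GENCODE M4 identifiers (the release is from notes deposited with each sample), with each transcript's percent of its gene, per the file headers. RPKM per gene and whole-number read counts per splice junction on mm9 were also deposited. The tools behind them, aligner included, were not given in the sources used here. Symbols, positions and transcript types came from GENCODE M21 on the same build, matched by Ensembl ID without version, for 42462 of 43346 genes. Promoter sequences came from RefSeq.

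Expected counts were rounded and scaled with TMM (edgeR 4.0.16), with a prior count of 0.5. Rows that name no Ensembl gene held 4.67% of counts in replicate 1 and 3.30% in replicate 2 and were left out of scaling. Calls of a 2-fold difference needed a summed count of 100. With no replicated contrast no p-value was computed. Intervals are exact 95% binomial intervals, and since reads carry no molecular identifiers they cover counting error only. Alternatives used DESeq2 1.42.0 size factors, library totals, deposited TPM and FPKM, and other thresholds. Gaps under 20 bases between annotated exons were not counted as introns.

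The members and gene lists were chosen with earlier results of these data known. All 10 members are named, with the highest and lowest gene of each pathway list and any gene 2-fold apart. Notch4, Rfng, Mib1 and Numb were added for their roles, and the named marker genes were picked after their values were seen. A further marker of committing progenitors is not reported here.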

Additional observations from a re-analysis of the deposited data

How the results depend on the processing

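With 2 libraries, 1 group and no contrast, the spread is that of a single pair, and no call has a test behind it. All 10 members stayed at 1 TPM or more when either replicate was left out, in FPKM and in TPM over nuclear genes, and 9 did so in mm9 RPKM on Ensembl 65 models. On Cufflinks models, which carry no symbols and were matched by overlap on the same strand, 2 members reached 1 RPKM in both values, and the cause was not tested. Scaling by library totals, which moves all genes alike, left 1 member 2-fold apart, Dll3, and deposited TPM also left 1. The median log2 ratio of the members was 0.23 with TPM. Library totals and TPM each shift the median gene, by -0.12 and -0.12 on the log2 scale, and relative to that median Dll1 stood at 1.02 by library totals and 0.80 by TPM. Among pathway genes, library totals put 2 apart, Maml2 at -1.06 and Heyl at -1.03 (log2), and TPM put 1 apart, Hes5 at 1.03. The posterior mean TPM, an alternative chosen after seeing the data, gave a mean of 39.6 TPM for Notch1 in place of 33.5. By that estimate Notch1 was lower in replicate 1, at 38.8 TPM against 40.4 TPM in replicate 2. Its mean then lay above that of Lfng, at 35.6 TPM. Spike-in scaling was not run because the spike-in rows hold a count of 0 in each library. Other counts changed by less than 1.5 times or by exactly that: 3 members were apart at a 1.5-fold threshold, and member junctions read in both values went to 197 with 10 reads in each and to 192 at annotated introns, against 284. No paired analysis was possible because the study has a single group.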
